A study of Mus musculus with 20 samples.

Results

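Motile cilia genes were followed across the cells of the mouse spinal cord after injury, with and without depletion of microglia. The set holds 37 genes, chosen by symbol for their part in beating cilia, and all 37 were found among the 16003 genes of the deposited single-cell count table. *Foxj1* stood for transcription factors. The radial spokes and the central pair were covered by *Rsph1*, *Rsph4a*, *Rsph9*, *Lrrc23*, *Spag6*, *Spag16*, *Spag17* and *Hydin*. Dynein arm members were *Dnah5*, *Dnah6*, *Dnah9*, *Dnah11*, *Dnaic1*, *Dnaic2*, *Dnali1* and *Dynlrb2*. Microtubule doublet and other axoneme members were *Tekt1*, *Tekt4*, *Enkur*, *Iqcg*, *Ak7*, *Odf3b*, *1700007K13Rik*, *Fam183b* and *Ccdc153*. Intraflagellar transport (IFT) and the Bardet-Biedl syndrome (BBS) proteins were covered by *Ift88*, *Ift172*, *Ift122*, *Arl6* and *Bbs4*. The last 6 members, grouped here as other, were *Tmem212*, *1110017D15Rik*, *Mlf1*, *Tppp3*, *Meig1* and *Lrriq1*.

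Each of the 6 libraries was 1 pool of 3 to 4 female C57BL/6J mice, 8 to 10 weeks old, that received a contusion at the ninth thoracic level or a sham laminectomy. Cords were taken at 7 or 28 days post-injury (dpi), and the labels give both days for each sham library, which is therefore the shared reference for both times within a diet. Mice ate vehicle chow, or chow with 1200 ppm of PLX5622, from 2 weeks before surgery to the end point. PLX5622 inhibits the Csf1 receptor and removes microglia, but other macrophages carry that receptor too. From each mouse, 1 cm of unperfused cord was dissociated, so every library holds blood cells and the cells that survive dissociation.

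Motile cilia are hair-like organelles that beat to move fluid. In the cord they are carried by ependymal cells, which line the central canal. Their axoneme is a ring of microtubule doublets around a central pair: dynein arms drive the sliding of the doublets, and radial spokes pass signals from the central pair to the arms. *Foxj1*, a forkhead factor, works with RFX factors to turn on the genes of this machine, and IFT trains carry its parts to the tip, as they also do in the immotile primary cilium of most other cells.

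Cluster 6 of the deposited annotation was checked against 6 ependymal markers, and all 6 were highest there, led by *Nnat* at 5625 CPM (unique molecular identifiers, or UMIs, of a gene, scaled so that every library's cells have the same total). UMIs are counted at the 3′ end and not scaled by length, so the order of levels among genes was not read. It held 76, 173 and 275 cells in the sham, 7 dpi and 28 dpi vehicle libraries and 47, 52 and 84 in those of PLX5622-fed mice, 707 of 21016 cells in all. Median depth in these cells ran from 1866 UMIs at 28 dpi under vehicle to 7093 at 7 dpi under PLX5622. The 12 genes of a myeloid list (such as *C1qa*, *Tyrobp* and *Ctss*) summed to 142, 7406 and 8515 CPM in cluster 6 of the vehicle libraries and to 413, 1815 and 1060 CPM in those of PLX5622. Only *Cd68* of the 12 was at 0, in the sham library of each diet. Markers of monocyte-derived macrophages summed to 172, 7632 and 2859 CPM under vehicle and 119, 3064 and 652 CPM under PLX5622, and those of neutrophils to 81.1, 4459 and 1981 CPM and 18.9, 66.3 and 402 CPM. The 6 ependymal markers themselves summed to 10586, 9921 and 8061 CPM under vehicle and 11196, 11632 and 9987 CPM under PLX5622. Cells of cluster 6 were also counted by their UMIs of the myeloid list. Those with 3 or more numbered 3 of 76, 105 of 173 and 150 of 275 under vehicle. Under PLX5622 they numbered 1 of 47, 8 of 52 and 14 of 84. Scrublet called 0, 25 and 38 cells of cluster 6 as doublets under vehicle and 1, 0 and 1 under PLX5622. The number called in a library was fixed beforehand by its size. It was 26, 443 and 776 cells under vehicle and 2, 2 and 7 under PLX5622, so few cells could be called under PLX5622. Of the barcodes, 44 occurred in 2 or more libraries, 1 of them in cluster 6. With 1 pool per condition no difference can be tested, and every 95% interval given covers counting error only.

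The motile cilia genes were a cluster 6 program. Of their 50648 UMIs, 45832 (90.5%, Clopper-Pearson interval 90.2 to 90.7%) lay in this cluster, which held 3.36% of the cells and 3.9% of all UMIs. The clusters were made from the same genes, so this describes cluster 6 and tests nothing. All 37 members were highest there, and for 30 of them at least 90.1% of the UMIs came from cluster 6. Levels of these 30 were 6.46 to 516 times those of the next cluster, with *Tmem212*, a membrane protein gene, at the upper end.

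**Figure D1:**
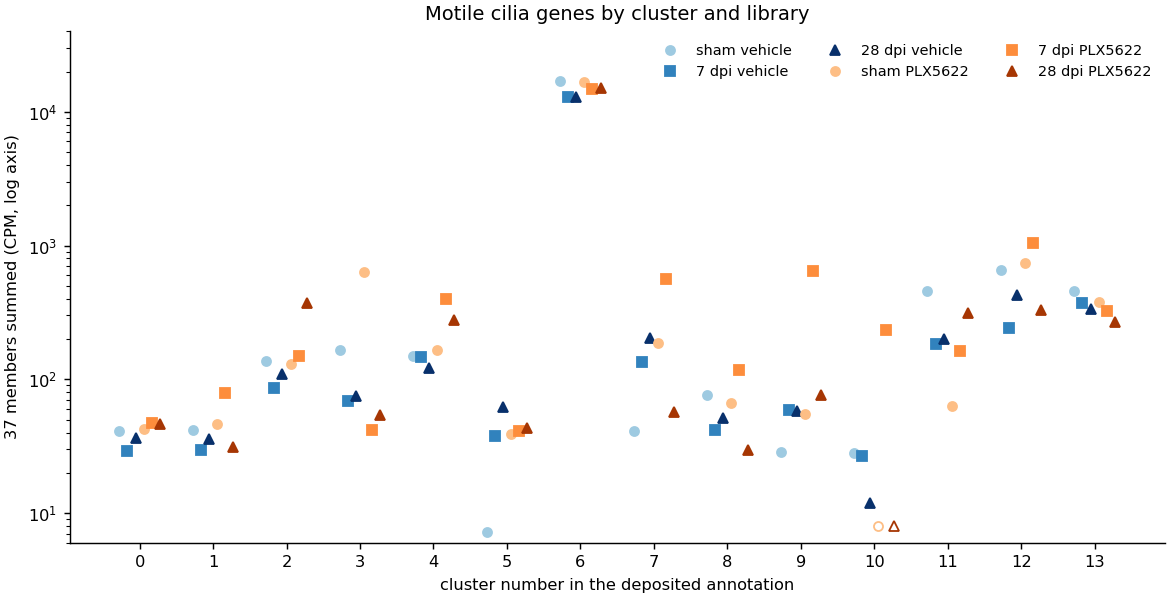
UMIs of the 37 motile cilia genes summed per cluster and library, as CPM of all UMIs of those cells on a log axis. Each point is 1 library, and open points near the bottom stand for a library with 0 UMIs of the set. Cluster 6 lies between 12830 and 17070 CPM, and the highest point elsewhere is 1041 CPM, from 10 cells of cluster 12.

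The other 7 members had a larger share of their UMIs elsewhere. *Rsph9*, a radial spoke head gene, had 69.2% of its UMIs there. *Tppp3*, a tubulin-binding protein gene, had 58.0%, and reached 500 CPM in the pericyte cluster 12 against 525 CPM in cluster 6. For the IFT and BBS members the share was 46.1% for *Ift88*, 44.2% for *Bbs4*, 42.6% for *Ift122*, 38.1% for *Arl6* and 25.2% for *Ift172*. These 5 genes gave 2.91% of the module's UMIs in cluster 6, but 61.2% in the microglia cluster 0 and 67.9% in the macrophage cluster 1. *Tppp3* alone gave 62.6 to 78.8% of them in clusters 3, 7, 12 and 13, which carry monocyte, B cell, pericyte and leptomeningeal markers. The summed set outside cluster 6 thus consists largely of other members than inside it.

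Every cell of cluster 6 held at least 1 UMI of the set at its own depth. After each cell was thinned to 1000 UMIs, which left out 16, 15, 33, 4, 3 and 14 shallower cells (sham, 7 and 28 dpi under vehicle, then under PLX5622), 98.0 to 100% of the cells kept 1 or more. In cluster 0, microglia that do not carry motile cilia, the thinned share was 4.56%, 2.42% and 3.75% under vehicle and 0%, 0% and 3.54% under PLX5622, with median depths of 3178, 2902, 1686, 5000, 6448 and 2896 UMIs. The 0% values come from 25 and 54 cells and allow shares of up to 13.7% and 6.6%. The shares in cluster 6 were above those in cluster 0 in every library.

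Promoter windows from RefSeq (GRCm38.p6, 250 bases before to 50 bases after a start) were found for 32 of the 37 members, all but *Foxj1*, *Rsph1*, *Rsph4a*, *Ift122* and *Tppp3*. The letters GTTGCC, the core of the X-box that RFX factors bind, stood on either strand in the windows of 17 of the 32 members (53.1%), against 3821 of 27025 genes (14.1%). The 7 letters GTTGCCA, which contain the first motif, were present for 7 members (21.9%, against 5.02% of all genes). Forkhead letters were about as rare as elsewhere: GTAAACA in 2 members (6.25%, against 4.05%), TGTTTGT in 2 (6.25%, against 7.6%) and TATTTAT in 1 (3.12%, against 6.46%). CCAAT occurred in 14 members (43.8%, against 41.1%). A match is a description of letters in this window, not a shown binding site.

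The stretches around GTTGCC are shown for the members with the most UMIs in cluster 6 whose window holds it, to let the shared core be read. Each is 30 bases, written so that the core (capitals) reads 5′ to 3′, with the strand of the printed letters and the distance of the core from the start. The *Ccdc153* core lay 152 bases upstream of the start, at chr9:44240513-44240542 (+ strand). In *Fam183b* it lay 16 bases upstream, at chr11:58801959-58801988 (- strand), with another 67 bases upstream. In *1110017D15Rik* it lay 18 bases upstream, at chr4:41507765-41507794 (- strand). For *Dynlrb2* it was 51 bases upstream, at chr8:116504952-116504981 (+ strand). For *Enkur* it was 34 bases upstream, at chr2:21205382-21205411 (- strand). For *Mlf1* it was 105 bases upstream, at chr3:67373980-67374009 (+ strand). For *Hydin* it was 13 bases upstream, at chr8:110266952-110266981 (- strand, opposite to the gene). For *Iqcg* it was 19 bases upstream, at chr16:33056188-33056217 (- strand).
Ccdc153: ctgagttttccaGTTGCCtggacaacgtgc
Fam183b: agaggaacatccGTTGCCtggaaactgtag
1110017D15Rik: cggagtaaatgtGTTGCCcggcaacaactc
Dynlrb2: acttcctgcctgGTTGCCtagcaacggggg
Enkur: gataaaagccagGTTGCCccgtctcctagc
Mlf1: gtgtttacagagGTTGCCatagcagccgag
Hydin: ttgttaccatctGTTGCCacagcaaccgca
Iqcg: cttgcgcgacgcGTTGCCatagctaccgat
The windows of *1110017D15Rik*, *Iqcg*, *Tekt1*, *Lrrc23* and *Spag16* held the core on both strands. Over the 17 genes there were 23 such cores, 20 of them upstream of the start and the farthest 157 bases away. *Spag6* is counted among the 17 by its symbol, but 2 loci have carried that name, so its UMIs cannot be placed at 1 of them and no position is given.

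In cluster 6 the summed set stood at 17070 CPM (16665 to 17483) in sham cords under vehicle, 12830 CPM (12563 to 13101) at 7 dpi and 12912 CPM (12659 to 13168) at 28 dpi. Under PLX5622 it stood at 16628 CPM (16215 to 17048), 14845 CPM (14527 to 15168) and 14939 CPM (14560 to 15325). Both sham libraries were thus higher than all 4 libraries of injured cords, and the 2 injured vehicle libraries were lowest. The plain CPM depends on what else the cells hold, and the myeloid UMIs given above were highest in those 2 libraries.

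At 7 dpi the set was lower than in sham cords under vehicle, with a log2 ratio of -0.41 (-0.46 to -0.37). At 28 dpi the log2 ratio was -0.40 (-0.45 to -0.36), against the same sham library. At 7 dpi, 33 of the 37 members were below 0, with a median of -0.37, while 60.8% of the 7525 genes with at least 20 UMIs were below 0 with a median of -0.15. At 28 dpi, 32 of 37 were below 0 with a median of -0.37, against 60.5% of 7772 genes and a median of -0.14. With TMM scaling the 2 ratios of the set were -0.27 and -0.23. The median member was thus below the median gene at both times.

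Few members passed 2-fold. *Spag17* and *Arl6* were lower by 2-fold or more at 7 dpi, 2 of 37 members against 6.25% of all genes tested, and none were higher (6.54% of all genes). At 28 dpi *Arl6* alone was lower by 2-fold or more, 1 of 37 against 4.58% of genes, and none were higher (6.33%). The counts of members lie near these background shares, and the shift of the set came from many members with ratios under 2-fold.

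The radial spoke and central pair genes had the lowest summed log2 ratio of the 6 role groups under vehicle. Their sum was 3360, 2266 and 2120 CPM in sham, 7 dpi and 28 dpi cords under vehicle, and 3014, 2299 and 2327 CPM under PLX5622. All 8 members were below 0 at 7 dpi and at 28 dpi under vehicle, with summed log2 ratios of -0.57 (-0.67 to -0.46) and -0.66 (-0.77 to -0.56). All 4 injured libraries were below both sham libraries for this sum.

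*Rsph1*, a radial spoke head gene (chr17:31255019-31277296), was at 1199, 794 and 702 CPM under vehicle and at 1179, 831 and 787 CPM under PLX5622. Its 2 sham values sat close together and above every injured value. The log2 ratios under vehicle were -0.60 (-0.78 to -0.42) at 7 dpi, and at 28 dpi -0.77 (-0.95 to -0.59). *Hydin*, which builds a projection of the central pair (chr8:110266968-110610253), was at 446, 303 and 277 CPM under vehicle and 378, 269 and 278 CPM under PLX5622. Both its sham values were also above every injured value. The share of all genes with this order is not given here, so for *Rsph1* and *Hydin* it only describes their levels. The log2 ratios of *Hydin* under vehicle were -0.56 (-0.86 to -0.26) and -0.69 (-0.98 to -0.39). Across the alternatives in processing they ran from -0.59 to -0.03 at 7 dpi, and at 28 dpi from -0.69 to -0.31. In thinned cells *Hydin* was found in 25%, 24.7% and 20.7% of cells under vehicle and in 41.9%, 20.4% and 25.7% under PLX5622. The size of its 7 dpi difference under vehicle thus depended on the processing.

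*Spag17*, a central pair gene (chr3:99885417-100143322), was at 342, 162 and 199 CPM under vehicle and at 213, 159 and 195 CPM under PLX5622. The sham vehicle library stood apart, and the sham library of PLX5622 was only little above the injured ones. The log2 ratios under vehicle were -1.08 (-1.46 to -0.71) at 7 dpi, and at 28 dpi -0.78 (-1.13 to -0.44). *Rsph4a*, another spoke head gene, was at 515, 357 and 311 CPM, then at 416, 349 and 268 CPM. *Spag16*, a central pair gene, departed from this order at 28 dpi under PLX5622: it was at 195, 141 and 117 CPM under vehicle and at 157, 154 and 207 CPM under PLX5622. *Rsph9*, *Lrrc23* and *Spag6* lay between -0.25 and -0.59 at 7 dpi and between -0.27 and -0.46 at 28 dpi under vehicle.

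**Figure D2:**
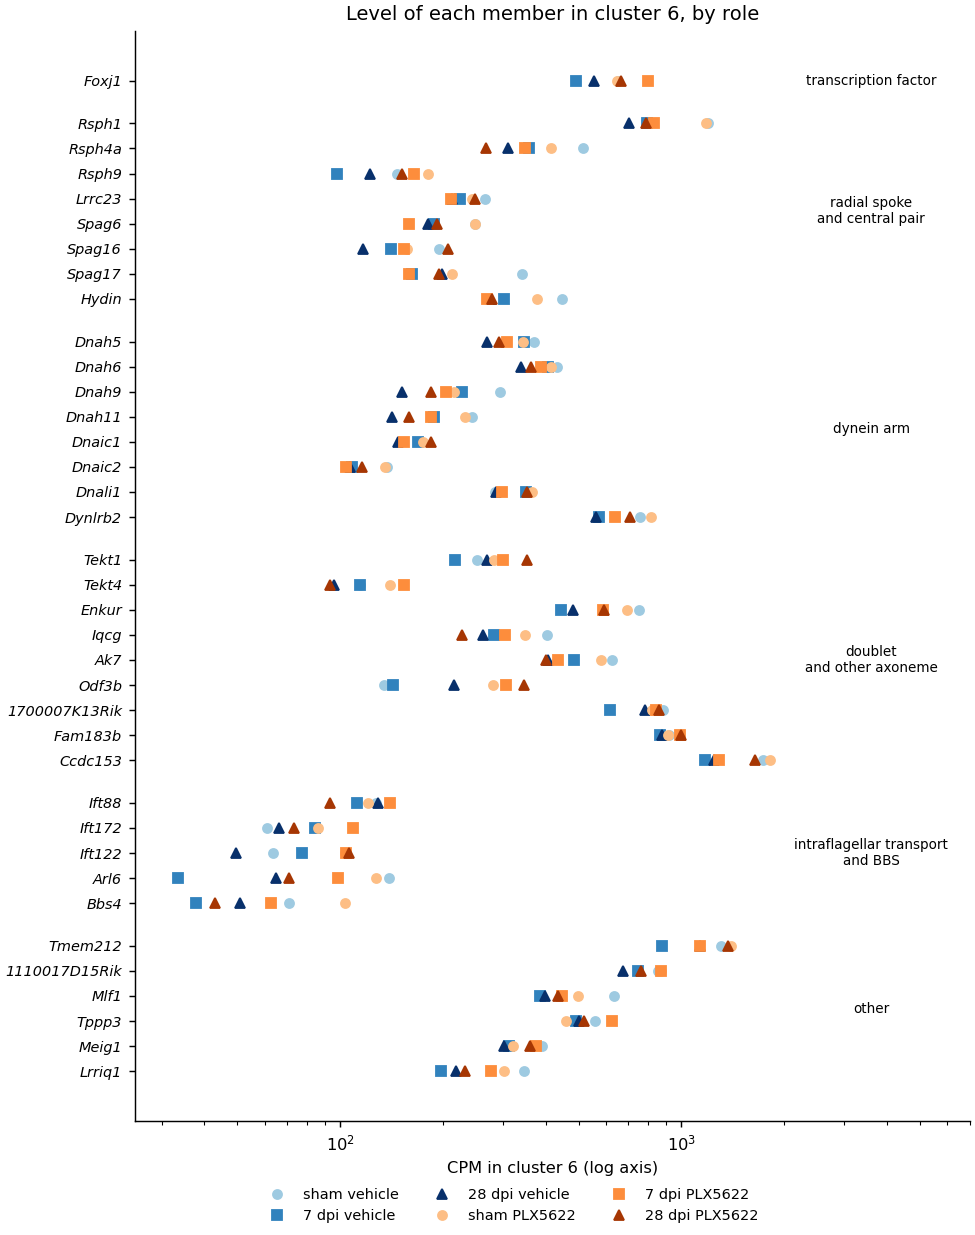
Level of each of the 37 members in cluster 6, in CPM on a log axis, grouped by role. Each point is 1 library, in blue for vehicle and orange for PLX5622. For *Rsph1* and *Hydin* both sham points lie to the right of the 4 injured ones, *Arl6* at 7 dpi under vehicle lies far to the left at 33.5 CPM, and the PLX5622 points of *Odf3b* lie to the right of the vehicle points of the same time.

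The dynein arm genes moved less at 7 dpi. Their sum was 2688, 2371 and 2007 CPM under vehicle, with log2 ratios of -0.18 (-0.29 to -0.07) at 7 dpi, and at 28 dpi -0.42 (-0.54 to -0.31). *Dnah9*, an outer arm heavy chain gene, was at 294, 227 and 152 CPM under vehicle and at 216, 204 and 185 CPM under PLX5622. Its log2 ratio at 28 dpi under vehicle, -0.95 (-1.33 to -0.57), was the lowest of this group. *Dnah11*, of the outer arm as well, had a log2 ratio of -0.78 (-1.19 to -0.37) at that time. Across the alternatives in processing the *Dnah11* value ran from -0.83 to 0.14, so its sign was not kept. The *Dnah9* value at 28 dpi under vehicle ran from -1.45 to -0.24. In thinned cells under vehicle *Dnah11* was found in 15% of sham cells and 15.3% of cells at 28 dpi. *Dnali1*, an inner arm light chain gene, did not follow, at 284, 351 and 286 CPM under vehicle and 364, 299 and 352 CPM under PLX5622. The other 5 lay between -0.03 and -0.40 at 7 dpi and between -0.22 and -0.46 at 28 dpi.

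The doublet and other axoneme members summed to 5819, 4344 and 4641 CPM under vehicle, with log2 ratios of -0.42 (-0.50 to -0.34) and -0.33 (-0.40 to -0.25). *Ccdc153*, a coiled-coil protein gene with the most UMIs of the set (chr9:44240677-44247306), was at 1737, 1172 and 1248 CPM under vehicle and at 1819, 1290 and 1649 CPM under PLX5622. Its 7 dpi and 28 dpi log2 ratios under vehicle were -0.57 (-0.72 to -0.42) and -0.48 (-0.62 to -0.33). *Enkur*, which codes for a protein inside the doublet, was at 751, 443 and 482 CPM, then at 693, 591 and 592 CPM. *Ak7*, an adenylate kinase gene, was at 626, 486 and 406 CPM, then at 583, 435 and 400 CPM. All its injured libraries were below the sham ones, an order whose share among all genes is not given here. *Fam183b* hardly moved, at 920, 866 and 879 CPM under vehicle and 915, 993 and 999 CPM under PLX5622. *Odf3b* alone in this group had an interval above 0 at 28 dpi under vehicle, 0.68 (0.23 to 1.16).

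*Arl6*, a small GTPase gene of the BBS pathway that brings the BBSome coat to membranes (chr16:59612949-59639409), had the lowest log2 ratio of any member at 7 and at 28 dpi under vehicle. It was at 139, 33.5 and 65.0 CPM under vehicle (55, 23 and 50 UMIs), and at 127, 98.5 and 70.8 CPM under PLX5622 (47, 55 and 28 UMIs). The 7 dpi vehicle library was the lowest of the 6. The log2 ratios under vehicle were -2.06 (-2.83 to -1.33) at 7 dpi, and at 28 dpi -1.10 (-1.68 to -0.52). *Bbs4*, a subunit of the BBSome, was at 71.0, 37.9 and 50.7 CPM under vehicle and 103, 62.7 and 43.0 CPM under PLX5622, from 17 to 39 UMIs per library. The IFT train genes lay nearer to sham: *Ift172* was at 60.9, 84.5 and 66.3 CPM, *Ift88* at 127, 112 and 129 CPM, and *Ift122* at 63.4, 77.2 and 49.4 CPM under vehicle, each with an interval that spans 0.

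*Foxj1* (chr11:116330704-116335499) was at 652, 492 and 555 CPM under vehicle, and at 648, 797 and 665 CPM under PLX5622. The 2 sham libraries were alike, the 7 dpi vehicle library was the lowest and the 7 dpi PLX5622 library the highest. Its log2 ratio at 7 dpi was -0.40 (-0.64 to -0.17) under vehicle. Among the other members, *Lrriq1* and *Mlf1* were lower at 7 dpi under vehicle, with log2 ratios of -0.80 (-1.15 to -0.45) and -0.72 (-0.98 to -0.47), and *Tmem212* had -0.58 (-0.75 to -0.41). At 28 dpi *Tmem212* was at -0.21 (-0.37 to -0.05), with 1311, 878 and 1135 CPM under vehicle.

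Under PLX5622 the set was lower after injury by a smaller amount. The log2 ratio was -0.16 (-0.21 to -0.12) at 7 dpi, and at 28 dpi -0.15 (-0.21 to -0.10), against the sham library of that diet. At 7 dpi 25 of 37 members were below 0 with a median of -0.16 (all genes 54.2%, median -0.04), and no member was lower or higher by 2-fold or more (3.01% and 3.43% of 6970 genes). At 28 dpi 26 of 37 were below 0 with a median of -0.21 (all genes 55.8%, median -0.09). *Bbs4* alone was lower by 2-fold or more at 28 dpi (3.83% of 6269 genes), with -1.25 (-2.17 to -0.39), and none were higher (2.76%). The radial spoke and central pair sum again had a low log2 ratio, -0.39 (-0.51 to -0.27) at 7 dpi, and at 28 dpi -0.37 (-0.50 to -0.25).

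**Figure D3:**
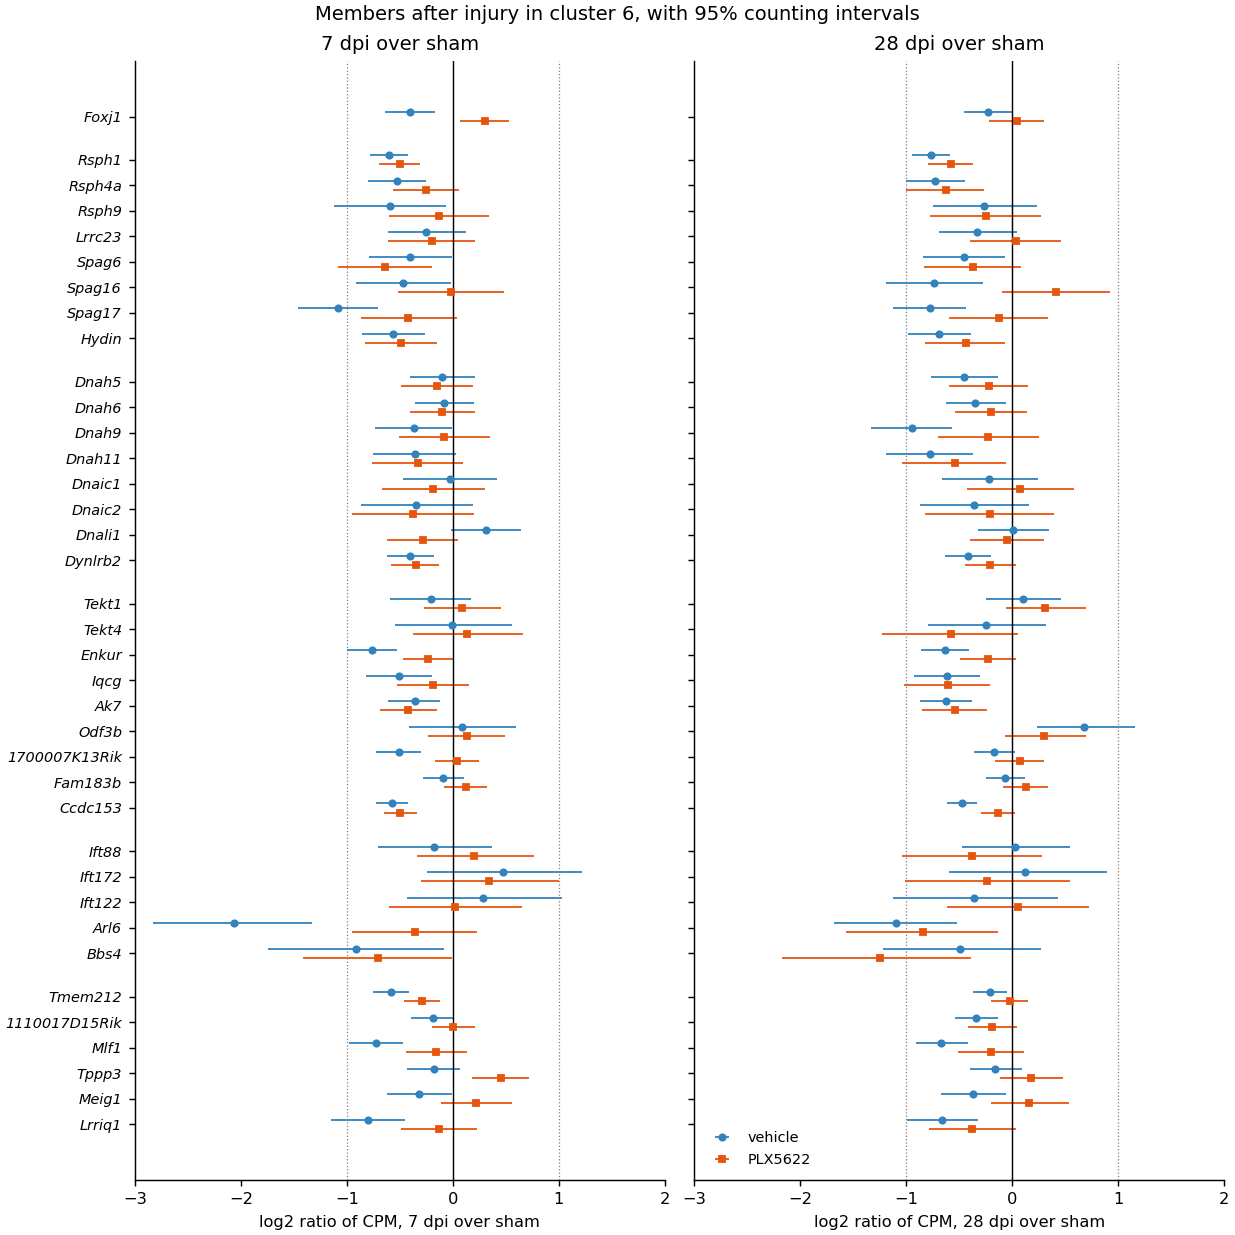
Log2 ratio of CPM in cluster 6 of each member after injury over sham, at 7 dpi (left) and 28 dpi (right), for vehicle (blue circles) and PLX5622 (orange squares). Bars are 95% counting intervals and dotted lines mark 2-fold. *Arl6* at 7 dpi under vehicle lies at -2.06, and *Foxj1* at 7 dpi lies at -0.40 under vehicle and 0.30 under PLX5622.

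Between diets, the sham libraries differed little. The set had a log2 ratio of -0.04 (-0.09 to 0.01) for PLX5622 over vehicle in sham cords, with a median of -0.05 over members and -0.03 over all genes. *Odf3b* was the 1 member higher by 2-fold or more (2.95% of 6372 genes), and none were lower (2.72%). *Spag17* had the lowest ratio, -0.68 (-1.10 to -0.27).

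After injury the set was higher under PLX5622 than under vehicle, by 0.21 in log2 at 7 dpi (0.17 to 0.25) as well as at 28 dpi (0.16 to 0.26). At 7 dpi 24 of 37 members were above 0 and 13 below, with a median of 0.20. Of all genes 42.5% were below 0, with a median of 0.08, so the count of members lies near that share. *Odf3b* and *Arl6* were higher by 2-fold or more at 7 dpi (3.44% of 7966 genes), and none were lower (4.59%). The log2 ratio of *Arl6* was 1.56, but it ran from 0.10 to 1.68 across the alternatives in processing. That of *Odf3b* ran from 0.83 to 1.30. In thinned cells at 7 dpi *Arl6* was found in 3.8% of cells under vehicle (6 cells) and 4.08% under PLX5622 (2 cells). The 2-fold call of *Arl6* thus depended on the processing. At 28 dpi 30 of 37 were above 0 and 7 below, with a median of 0.16. Of all genes 46.3% were below 0, with a median of 0.04. *Ift122* alone was higher by 2-fold or more at 28 dpi (2.83% of 7680 genes), with 1.10 (0.44 to 1.78), and none were lower (6.09%).

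*Foxj1* at 7 dpi was 0.70 (0.49 to 0.90) higher in log2 under PLX5622 than under vehicle, and 0.26 (0.03 to 0.49) higher at 28 dpi. Within the diet it was above its own sham library at 7 dpi, by 0.30 (0.07 to 0.53). *Odf3b*, named for the outer dense fibres of the sperm tail (chr15:89377447-89379254), was at 134, 143 and 216 CPM under vehicle and at 281, 306 and 346 CPM under PLX5622. Every PLX5622 library was above every vehicle library, the sham ones included, an order whose share among all genes is not given here. The log2 ratios of PLX5622 over vehicle were 1.06 (0.57 to 1.57) in sham cords, 1.10 (0.74 to 1.48) at 7 dpi, and at 28 dpi 0.68 (0.35 to 1.02). *Tekt1*, a filament gene of the doublet, was at 251, 217 and 269 CPM under vehicle and 283, 301 and 352 CPM under PLX5622. *Tppp3* was at 558, 492 and 500 CPM, then at 459, 627 and 518 CPM, with 0.45 (0.18 to 0.72) at 7 dpi over sham under PLX5622. The radial spoke and central pair sum, by contrast, had a log2 ratio near 0 between diets at 7 dpi, 0.02 (-0.09 to 0.13), and so had the dynein arms, -0.06 (-0.16 to 0.05).

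The myeloid UMIs in cluster 6 moved with these differences. In cells with fewer than 3 UMIs of the myeloid list, the set stood at 17117, 15688 and 15487 CPM under vehicle and at 16769, 15845 and 15380 CPM under PLX5622. In cells with 3 or more it stood at 12032 and 11763 CPM at 7 and 28 dpi under vehicle and at 11744 and 12024 CPM under PLX5622. Cells with few myeloid UMIs thus had closely like levels in the 4 injured libraries, and the injured vehicle libraries held most of the other cells. Median depth of the cells with fewer than 3 was 1858 and 1523 UMIs at 7 and 28 dpi under vehicle. Under PLX5622 it was 7252 and 3114 UMIs. The limit is a count, so it allows a larger myeloid share in the shallower vehicle cells, and the classes are not alike between diets.

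The cells with 3 or more myeloid UMIs were not alike. Under vehicle, 78 cells at 7 dpi and 98 at 28 dpi had 3 to 19 such UMIs, and the set stood at 16222 and 14921 CPM in them, near its level in cells with fewer than 3. Another 27 and 52 cells had 20 or more, and the set stood at 5930 and 7841 CPM in those. Depth rose along these classes, with medians of 1858, 2316 and 6427 UMIs at 7 dpi and 1523, 1812 and 3730 at 28 dpi. Over cells with fewer than 20 myeloid UMIs, a limit chosen after the values were seen, the log2 ratios of the set under vehicle were -0.09 (-0.14 to -0.04) at 7 dpi, and at 28 dpi -0.17 (-0.22 to -0.12). Between diets they were then -0.04 (-0.08 to 0.01) and 0.00 (-0.05 to 0.05).

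Over the cells with few myeloid UMIs alone, the log2 ratio of the set at 7 dpi under vehicle was -0.13 (-0.19 to -0.06), and that at 28 dpi -0.14 (-0.20 to -0.09). All genes had medians of -0.09 and -0.08 in these cells. Between diets it was 0.01 (-0.05 to 0.08) at 7 dpi, and at 28 dpi -0.01 (-0.07 to 0.05). Without the cells called doublets it was -0.11 and -0.24 for the 2 times under vehicle, and -0.09 and 0.05 between diets. These calls removed 25 and 38 cells of cluster 6 from the injured vehicle libraries and 0 and 1 from those of PLX5622. The last 2 values thus filter mainly the vehicle side. The part of myeloid RNA in these differences was not tested further.

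**Figure D4:**
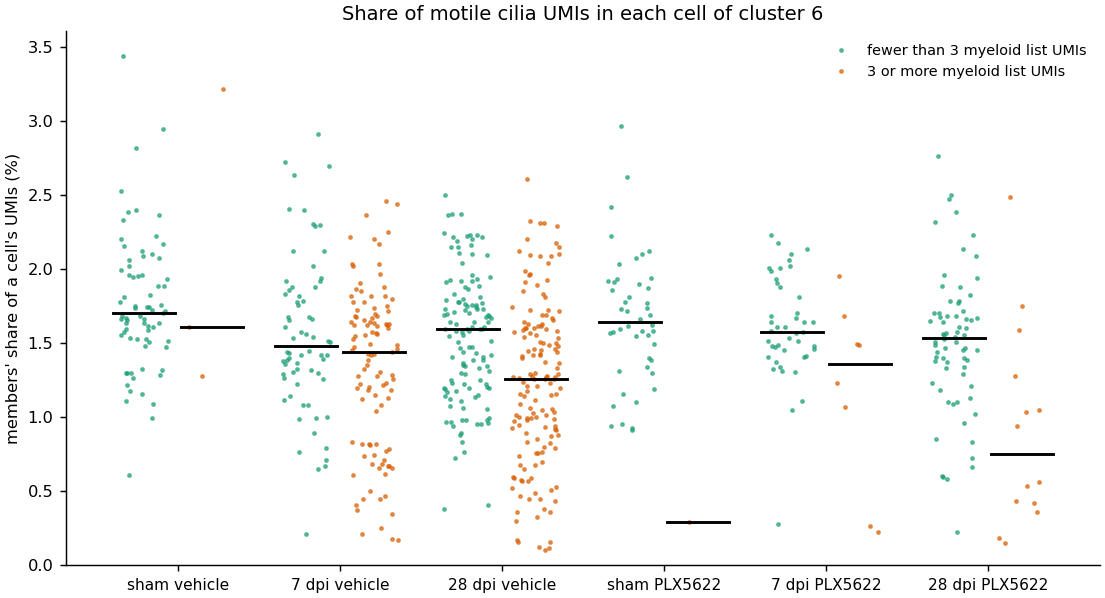
Percent of each cell's UMIs that came from the 37 members, for the cells of cluster 6 in each library. Green points are cells with fewer than 3 UMIs of the myeloid list, orange points are cells with 3 or more, and black lines are medians, at 1.48% and 1.44% at 7 dpi and 1.59% and 1.26% at 28 dpi under vehicle.

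The radial spoke and central pair sum stayed lower after injury in the cells with few myeloid UMIs. There the summed log2 ratio was -0.46 (-0.63 to -0.29) at 7 dpi, and at 28 dpi -0.41 (-0.56 to -0.27) under vehicle, and -0.32 (-0.44 to -0.19) and -0.34 (-0.47 to -0.21) under PLX5622. Of the 8 members, 8 and 7 were below 0 at these times under vehicle, and 7 and 6 under PLX5622. Fewer had an interval below 0, 4 and 5 under vehicle and 3 and 3 under PLX5622. The shares of all genes in these cells are not given here. *Rsph9* was at 0.30 (-0.32 to 0.90) at 28 dpi under vehicle, and *Spag16* at 0.35 (-0.18 to 0.88) at 28 dpi under PLX5622. *Rsph1* was at -0.48 (-0.77 to -0.20) and -0.45 (-0.70 to -0.21) under vehicle in these cells, and *Hydin* at -0.59 (-1.11 to -0.11) and -0.63 (-1.06 to -0.21). *Arl6* at 7 dpi under vehicle was at -2.11 (-3.79 to -0.80) there, from 5 UMIs against 55. *Bbs4* was lower still, at -2.46 (-5.57 to -0.47), from 2 UMIs against 28.

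The dynein arm sum at 7 dpi under vehicle went the other way in those cells, to 0.12 (-0.04 to 0.28), and without called doublets to 0.09 (-0.03 to 0.20). The doublet and other axoneme sum was -0.07 (-0.18 to 0.05) and -0.08 (-0.18 to 0.02) under vehicle in cells with few myeloid UMIs. *Foxj1* at 7 dpi was -0.18 (-0.55 to 0.18) under vehicle and 0.42 (0.18 to 0.66) under PLX5622 in them, and its difference between diets was 0.59 (0.25 to 0.95).

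**Figure D5:**
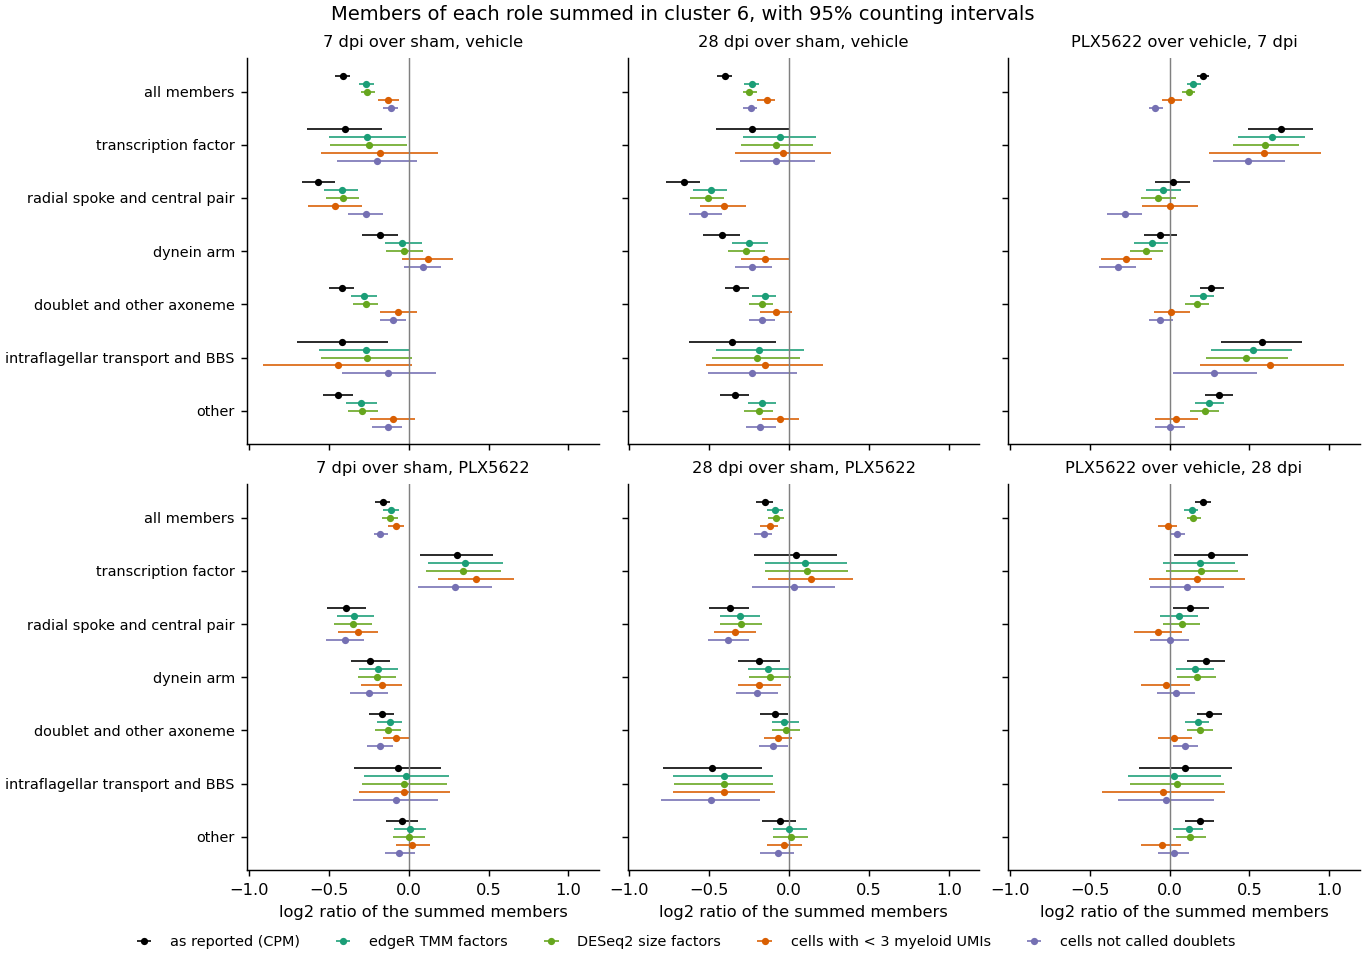
Log2 ratio of the members of each role summed over cluster 6, for 6 comparisons. Black is the value as reported, the other colours are the values with 2 other scalings, with cells of fewer than 3 myeloid UMIs, and with cells not called doublets, and bars are 95% counting intervals. The radial spoke and central pair sum lies below 0 in all 4 comparisons of injury with sham for every colour, and ranges from -0.66 to -0.27.

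Genes of the same machine outside the set were read from lists of their own. In the table there were 44 other axoneme genes, of which 40 had 20 UMIs or more. Their sum at 7 dpi under vehicle had a log2 ratio of -0.53 (-0.60 to -0.46), with 37 of 40 below 0 (60.8% of all genes). At 28 dpi it was -0.49 (-0.56 to -0.43), with 35 of 40 below 0 (60.5% of all genes). *Spata17* and *Wdr16* were lower by 2-fold or more at 7 dpi, 2 of 40 against 6.25% of all genes, and *Spata17* at 28 dpi, 1 of 40 against 4.58%. These counts are no more than the background, and none were higher by 2-fold at these times. In cells with few myeloid UMIs the sums were at -0.25 (-0.35 to -0.14) and -0.21 (-0.30 to -0.13), and with TMM scaling at -0.39 and -0.32. The list's members with the most UMIs were *1700009P17Rik*, at 674, 457 and 512 CPM under vehicle, *Iqca*, at 497, 351 and 374 CPM, and *Wdr78*, at 413, 300 and 274 CPM. Under PLX5622 the sums were at -0.17 (-0.24 to -0.09) and -0.25 (-0.33 to -0.17).

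Dynein assembly and docking genes were lower as a sum as well. All 17 in the table had enough UMIs, and their sum was at -0.40 (-0.53 to -0.26) and -0.48 (-0.62 to -0.35) under vehicle, with 13 of 17 below 0 at each time (60.8% and 60.5% of all genes). In cells with few myeloid UMIs it was at -0.10 (-0.29 to 0.10) and -0.20 (-0.37 to -0.02), and with TMM scaling at -0.25 and -0.31. Under PLX5622 it was at -0.20 (-0.34 to -0.06) and -0.36 (-0.52 to -0.21). *Dnaaf2* at 7 dpi and *Spag1* at 28 dpi were lower by 2-fold or more under vehicle, 1 of 17 each time, near the 6.25% and 4.58% of all genes. *Ccdc39*, which sets the spacing of the inner arms along the doublet, was at 456, 264 and 252 CPM under vehicle and 359, 342 and 326 CPM under PLX5622. *Armc4*, for outer arm docking, was at 150, 115 and 123 CPM under vehicle, and *Drc1*, of the nexin-dynein link, at 221, 154 and 157 CPM.

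Of 30 other IFT and BBS genes 28 were tested, and 25 of them were below 0 at 7 dpi and 23 at 28 dpi under vehicle (60.8% and 60.5% of all genes), with sums at -0.39 (-0.49 to -0.30) and -0.43 (-0.53 to -0.34). In cells with few myeloid UMIs the sums were at -0.25 (-0.40 to -0.10) and -0.19 (-0.31 to -0.06), and with TMM scaling at -0.25 and -0.26. *Bbs2*, *Bbs5*, *Bbs7* and *Ttc30b* were lower by 2-fold or more at 7 dpi, 4 of 28 against 6.25% of all genes, and *Bbs7* and *Ttc26* at 28 dpi, 2 of 28 against 4.58%. The IFT train genes *Ift74* and *Ift81* were at 314, 192 and 200 CPM and at 304, 210 and 179 CPM, and *Wdr60*, of the motor that returns the trains, at 319, 299 and 239 CPM. Under PLX5622 the sum was at 0.03 (-0.07 to 0.14) at 7 dpi, and at 28 dpi -0.09 (-0.20 to 0.03).

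Upstream regulators of multiciliated cells were too sparse for more than 5 of 8 to be tested. Their sum had a log2 ratio of -0.21 (-0.47 to 0.05) at 7 dpi under vehicle, and none passed 2-fold in any comparison. *Rfx3*, a partner of *Foxj1*, was at 145, 103 and 138 CPM under vehicle and at 111, 172 and 159 CPM under PLX5622. Its log2 ratio between diets at 7 dpi was 0.73 (0.28 to 1.20). *Myb*, a regulator of multiciliation, went the other way between diets at 7 dpi, by -0.61 (-1.18 to -0.06), with 93.8, 118 and 100 CPM under vehicle and 78.3, 77.0 and 114 CPM under PLX5622. *Cep164*, of the basal body appendages, was at 98.9, 112 and 101 CPM under vehicle.

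Ependymal genes outside the cilium gave other summed ratios than the set after injury under vehicle, and like ones between diets. Their 20 genes summed to 34142, 34038 and 30972 CPM under vehicle, with log2 ratios of 0.00 (-0.04 to 0.03) at 7 dpi, and at 28 dpi -0.14 (-0.17 to -0.11), and under PLX5622 to 35015, 39073 and 36886 CPM. Between diets the log2 ratio of this sum was 0.20 (0.17 to 0.23) at 7 dpi, and at 28 dpi 0.25 (0.22 to 0.28), beside 0.21 and 0.21 for the set. In cells with few myeloid UMIs it was -0.04 (-0.08 to 0.00) and 0.03 (0.00 to 0.07) between diets, and 0.32 (0.28 to 0.36) and 0.11 (0.08 to 0.15) after injury under vehicle. The median over the 17 tested was -0.24 at 7 dpi under vehicle, so sum and median differ. *Id4* and *Sparcl1* were lower and *Gfap* higher by 2-fold or more at that time, 2 and 1 of 17 against 6.25% and 6.54% of all genes. *Dbi*, an acyl-CoA binding protein gene and the most abundant of the list, was at 11129, 14129 and 12050 CPM under vehicle. *Nnat* was at 6362, 5415 and 3911 CPM and *Clu* at 4009, 3403 and 3673 CPM under vehicle.

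Over whole libraries the set was at 1043, 286 and 406 CPM of all UMIs in sham, 7 dpi and 28 dpi cords under vehicle, and 2544, 2024 and 1677 CPM under PLX5622. Cluster 6 made up 4.23% (3.35 to 5.27%), 2.33% (2.0 to 2.69%) and 2.79% (2.48 to 3.14%) of cells under vehicle, and 9.55% (7.1 to 12.5%), 10.3% (7.8 to 13.3%) and 8.94% (7.19 to 10.9%) under PLX5622. Its share of the UMIs of a library was 5.49%, 1.92% and 2.77%, then 14.2%, 12.8% and 10.7%. The order of the whole-library levels was that of these UMI shares and not that of the cell shares. Shares of recovered cells do not count cells in the cord, and the loss of myeloid cells and a gain of ependymal cells cannot be told apart in them.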

How the data were processed

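The deposited table holds raw counts of UMIs per gene and cell, made by the authors with Cell Ranger (3.0.2 per the file headers) from 10x libraries, then filtered and clustered in Seurat. The paper states that cells with more than 3000 genes were removed, but 716 cells held more, 109 of them in cluster 6. All cells were used as deposited. The deposited cluster numbers were used, and the bulk samples were not analysed here. UMIs of each gene were summed over the cells of cluster 6 in a library (370587 to 769383 UMIs) and scaled to CPM, with exact Poisson intervals. Ratios have exact conditional binomial intervals, a gene at 0 takes a floor of 3 counts, and genes need 20 UMIs over both libraries. No test was possible with 1 pool per condition. Alternatives were TMM (edgeR 4.0.16) and DESeq2 1.42.0 size factors, equal cell weights, thinning to 1000 UMIs, cells with 500 or more genes, cells with fewer than 3 of the 12 genes' myeloid UMIs, no Scrublet doublets (scanpy 1.11.5), the set without *Ccdc153* or the IFT and BBS members, and the median over members. Doublets stay in the main values. Steps ran in Python 3.11.15 and were tested on simulated data. Every member is named, and per pathway list the 3 genes with most UMIs, beside those past 2-fold after injury under vehicle. In the other comparisons *Cpe*, *Wdr16*, *Bbs5*, *Bbs9*, *Kif3b*, *Ttc25*, *Nme7*, *Wdr34* and *Gfap* of these lists also passed 2-fold in at least 1. They are not read as results here. Members and lists were chosen with earlier results of these data known.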

Additional observations from a re-analysis of the deposited data

Results flagged for a closer look

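*Foxj1* at 7 dpi moved in opposite directions under the 2 diets, with a log2 ratio to sham of -0.40 under vehicle and of 0.30 under PLX5622, and both counting intervals exclude 0. Of 6677 genes with 20 UMIs or more in both comparisons, 36 (0.539%) did so at 7 dpi. Genes with few UMIs can hardly meet this, as both intervals must exclude 0, so it is not the share among genes as deep as *Foxj1*. The difference was not tested, since each value comes from 1 pool. In the cells with few myeloid UMIs the values were -0.18 (-0.55 to 0.18) and 0.42 (0.18 to 0.66). Across the alternatives in processing, the vehicle value ran from -0.56 to -0.08 and the PLX5622 value from 0.03 to 0.45.

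Barcodes that the deposited table leaves out, all with fewer than 200 genes, held a few UMIs of the set in the sham library of PLX5622. They were 4 of 64317 UMIs from 102 barcodes, or 62.2 CPM (16.9 to 159). The floor of 3 counts set for a gene at 0 stands at 46.6 CPM there, within that interval. In the sham vehicle library the value was 41.5 CPM from 3 UMIs.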

How the results depend on the processing

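For the summed set, the log2 ratios reported as -0.41, -0.40, -0.04, 0.21, 0.21, -0.16 and -0.15 (7 and 28 dpi over sham under vehicle, PLX5622 over vehicle in sham, 7 dpi and 28 dpi cords, 7 and 28 dpi over sham under PLX5622) moved beyond their counting intervals as follows. With TMM factors they were -0.27 and -0.23 under vehicle, 0.15 and 0.14 between diets after injury, and -0.11 and -0.09 under PLX5622. With DESeq2 factors they were, in the same order, -0.26, -0.25, 0.12 and 0.15, with -0.08 for the last. With cells weighted alike the first was -0.32, sham diets -0.12, between diets after injury 0.12 and 0.04, and under PLX5622 -0.08 and -0.22. With cells thinned to 1000 UMIs they were -0.28 for the first and 0.03 and 0.11 between diets. With few myeloid UMIs they were -0.13 and -0.14 under vehicle, 0.01 and -0.01 (a changed sign) between diets, and -0.08 at 7 dpi under PLX5622. Without called doublets they were -0.11 and -0.24 under vehicle, and -0.09 (a changed sign) and 0.05 between diets. This filter removed cells almost only from the vehicle libraries, since the number called was fixed by library size. With fewer than 20 myeloid UMIs, chosen after the data were seen, they were -0.09 and -0.17 under vehicle, -0.04 (a changed sign) and 0.00 between diets, and -0.10 at 7 dpi under PLX5622. The median over members gave -0.21 for the last. No other alternative moved them, and the causes were not tested. Role sums with a changed sign, in alternatives chosen after the data were seen, were: between diets at 28 dpi, radial spoke and central pair -0.07 and 0.00 (few myeloid UMIs, no doublets), dynein arm -0.02 and other -0.05 (few myeloid UMIs); doublet and other axoneme between diets at 7 dpi -0.06 (no doublets); and dynein arm at 7 dpi under vehicle 0.12 and 0.09. Sums of other lists with a changed sign, likewise chosen later, were other axoneme genes -0.17 and other IFT and BBS genes -0.07 between diets at 28 dpi (few myeloid UMIs), and ependymal genes outside the cilium 0.03 (TMM) and 0.11 (few myeloid UMIs) at 28 dpi under vehicle and -0.04 between diets at 7 dpi (few myeloid UMIs). Counts of members past 2-fold changed with a minimum of 100 UMIs to 1 lower and 1 higher at 7 dpi (under vehicle, and between diets), 0 higher between diets at 28 dpi and 0 lower at 28 dpi under PLX5622. Past 1.5-fold there were 8 lower at 7 dpi and 13 lower and 1 higher at 28 dpi under vehicle, 1 lower and 2 higher between sham diets, 5 and 3 higher between diets at 7 and 28 dpi, and 2 and 4 lower under PLX5622. Less the median of all genes, 1 and 0 were lower under vehicle. For all these changed counts, the shares of all genes under the same setting are not given here. The counts are therefore not read as results about the members. Over all barcodes the sham PLX5622 library had 2482 CPM, and thinned to 500 UMIs 100% of the 7 dpi PLX5622 cells of cluster 6 held a UMI (98.0% at 1000). Of the single members' values under 7 alternatives, 1559 stayed within their intervals and 254 did not. At 7 dpi under vehicle 16 members were below 0 in all of these alternatives and 4 above 0 in all. Between diets at 7 dpi, 6 were below 0 in all and 9 above 0 in all. The shares of all genes that kept a sign are not given here, so these counts are not read as results about the members. Depth limits the members with few UMIs, such as *Arl6*, *Bbs4*, *Tekt4* and *Dnaic2*. No paired analysis was possible because each condition is 1 library and no result comes from a test.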
